A study of Mus musculus with 12 samples.

Results

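The genes described here are 10 that airway secretory cells are known for: the secretoglobins Scgb1a1, Scgb3a1 and Scgb3a2, the mucins Muc5b, Muc5ac and Muc1, the enzymes Cyp2f2 and Cbr2, the secreted protein Bpifa1 and the transcription factor Spdef. They were chosen by name out of 22180 genes named on the array. A probe set counted where the array's annotation gave it exactly 1 symbol and that symbol was one of the 10, which left 11 of the 41345 probe sets, with 2 for Cyp2f2 and 1 for each other gene. All 11 entered the tests, since no filter on dim probe sets was applied.

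RNA came from MLE12, a mouse lung epithelial line that carries the SV40 large T antigen and derives from tumours in mice where the human surfactant protein C promoter drove that antigen. It was hybridised to 12 Affymetrix arrays, 3 in each of 4 groups: cells with shRNA to the long noncoding RNA NANCI, cells with a scrambled shRNA as their control, cells with shRNA to the RNA called LL34, and cells with a scrambled shRNA as the control of those. Every culture received pLKO.1 lentivirus with polybrene at 60% confluency and was collected after 12 hours of infection and 65 hours of subculture, and the medium of all groups held insulin, hydrocortisone and beta-estradiol. The labels call the 3 arrays of a group biological replicates and do not say whether each was infected separately, so the p-values cover only differences among these arrays, which may be technical. In a bulk culture, fewer cells with an RNA and less of it per cell cannot be told apart.

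Airway secretory cells fall into club cells, which store secretoglobins and carry enzymes that oxidise and reduce inhaled compounds, and goblet cells, which release gel-forming mucins. NKX2-1, the lung lineage transcription factor, is known to act at the Scgb1a1 and Scgb3a2 promoters, and forkhead factors such as FOXA2 act beside it. SPDEF drives goblet cell genes in mouse airway. MLE12 is used as a distal, alveolar type 2 line, in which most of these genes are not the ones it is kept for.

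The RNA targeted in the NANCI set checks its labels. Nanci is given as another name of Sfta3-ps, the gene beside Nkx2-1, in the RefSeq gene table. Sfta3-ps RNA was at 13.3% of scrambled after NANCI shRNA and at 62.6% of scrambled after LL34 shRNA (adjusted p 1.72e-07 and 0.00284). The RNA that the LL34 shRNA targets was not analysed here, so its fall was not checked. Below, knockdown means only an shRNA group set against its scrambled group. Nkx2-1 log2 signals were 10.18, 10.18 and 10.04 after NANCI shRNA, against 11.18, 11.12 and 11.10 after its scrambled shRNA. They were 10.39, 10.38 and 10.39 after LL34 shRNA, against 10.73, 10.74 and 10.49 after its scrambled shRNA. Nkx2-1 fell after both, by 1.00 and by 0.27 on the log2 scale (adjusted p 4.95e-06 and 0.0327), but the LL34 call was lost when LL34 shRNA array 1, 2 or 3 or LL34 scrambled array 1 or 2 was left out (adjusted p 0.0862 to 0.119). Of the markers that define the line's origin, Nkx2-1, Cdh1, Krt8, Sftpc and Sftpb lay in the top quartile of every array. The wider list of alveolar type 2 markers was dimmer: 7 of 15 reached the near-background level defined below, with median log2 signals of 6.45 after NANCI shRNA, against 6.68 after its scrambled shRNA, and 6.13 after LL34 shRNA, against 6.19 after its scrambled shRNA. Epcam passed that level on 5 of 12 arrays and Krt18 on 7 of 12.

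Some features of the arrays touch the results. The deposited values looked normalized separately in each set of 6, with array medians of 6.84 to 6.88 in the NANCI set and 6.54 to 6.61 in the LL34 set. Levels are therefore set side by side across sets by percentile rank, with exceptions. In 1 setting all 6 scrambled arrays serve as 1 control. Means over all 12 arrays are also set against 1 mean near-background level, to count genes that reached it. Changes given against all 6 scrambled arrays include any offset between the sets. A call lost or gained in that setting may come from the offset. The third LL34 scrambled array correlated least with its group (mean r = 0.988, against 0.992 to 0.997 for the other LL34 arrays). LL34 results on the members and gene lists are therefore also given without it. It also enters the spread that all groups share, and without it 9551 probe sets were called after NANCI shRNA in place of 8228. Exactly equal values were common in the LL34 set. All 3 arrays of a group were equal for 464 probe sets after LL34 shRNA and 212 after its scrambled shRNA. In the NANCI set 0 and 1 probe sets were. Pairs of arrays within a group were equal for up to 1561 and 1681 probe sets, against 26 and 21 in the NANCI set. Among the members, Scgb3a2 and Muc5ac were tied on LL34 shRNA arrays 1 and 3. Muc5b was tied on LL34 shRNA array 2 and scrambled array 1, and 1 Cyp2f2 probe set on LL34 shRNA array 3 and scrambled array 1. Chid1 and Dusp8, read below, were also tied on LL34 shRNA arrays 1 and 3, and Muc6 on LL34 shRNA arrays 2 and 3 and scrambled array 1. Ties within a group may understate the spread between cultures. What ties between an shRNA and a scrambled array, as for Muc5b, do to the LL34 differences was not tested.

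Promoter sequences were compared because Nkx2-1 and the forkhead gene Foxa1 were called lower in both knockdowns. RefSeq windows of 300 bases on GRCm38.p6, from 250 bases before to 50 after the gene start, were at hand for Scgb3a1, Muc1, Cyp2f2, Cbr2, Bpifa1 and Spdef, 6 of the 10 genes. Muc5b, Muc5ac, Scgb1a1 and Scgb3a2 were not searched, so the motifs below bear on no member that was called. Each was searched on both strands for an NKX2 type motif, TNAAGTG or its complement CACTTNA, and for a forkhead type motif, TNTTTAC or its complement GTAAANA. The NKX2 type letters occurred in 11.5% of all 32851 windows and the forkhead type letters in 12.4%. The windows below are those with a match, written 5′ to 3′ in the direction of the gene with the match in capitals. The first 2 hold an NKX2 type match, 174 bases before the start of Scgb3a1 (chr11:49663345-49663644, plus strand) and 192 bases before that of Cyp2f2 (chr7:27119705-27120004, plus strand). The other 2 hold a forkhead type match, 127 bases before the start of Bpifa1 (chr2:154142630-154142929, plus strand) and 47 bases before that of Spdef (chr17:27728902-27729201, minus strand).
Scgb3a1: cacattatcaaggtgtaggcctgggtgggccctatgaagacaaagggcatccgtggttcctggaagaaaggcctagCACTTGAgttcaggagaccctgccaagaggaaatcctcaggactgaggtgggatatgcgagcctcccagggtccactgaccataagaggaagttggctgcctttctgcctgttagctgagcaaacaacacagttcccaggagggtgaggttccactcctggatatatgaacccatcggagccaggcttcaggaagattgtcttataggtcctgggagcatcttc
Cyp2f2: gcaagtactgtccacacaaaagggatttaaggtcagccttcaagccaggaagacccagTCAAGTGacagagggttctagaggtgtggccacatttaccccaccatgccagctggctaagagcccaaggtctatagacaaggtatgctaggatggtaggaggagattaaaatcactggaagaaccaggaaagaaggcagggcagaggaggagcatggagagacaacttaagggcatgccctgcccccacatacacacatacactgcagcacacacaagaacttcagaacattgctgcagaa
Bpifa1: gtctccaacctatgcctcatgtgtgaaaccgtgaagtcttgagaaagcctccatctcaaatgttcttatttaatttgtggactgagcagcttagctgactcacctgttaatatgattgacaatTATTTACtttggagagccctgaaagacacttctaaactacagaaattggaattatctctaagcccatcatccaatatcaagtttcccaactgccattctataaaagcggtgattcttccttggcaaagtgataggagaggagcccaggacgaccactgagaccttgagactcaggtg
Spdef: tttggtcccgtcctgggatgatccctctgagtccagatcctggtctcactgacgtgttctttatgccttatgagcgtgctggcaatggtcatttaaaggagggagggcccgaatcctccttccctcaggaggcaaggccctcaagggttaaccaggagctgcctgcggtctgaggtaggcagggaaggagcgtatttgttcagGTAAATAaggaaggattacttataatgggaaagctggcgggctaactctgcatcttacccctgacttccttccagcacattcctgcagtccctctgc
The Muc1 and Cbr2 windows held neither motif. No window held both motifs, and a match describes letters only and shows no binding.

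Most airway secretory genes were at or near background in these cells by the main yardstick, and fewer were by a lower one. Olfactory receptor genes, which a lung line is not known to use, served as the yardstick: the 95th percentile of their 1108 probe sets lay between 6.68 and 6.87 in the NANCI set and between 6.34 and 6.59 in the LL34 set, close to the median of each array. Only Muc5b, Spdef and Scgb3a1 passed it on all 12 arrays. Cbr2 passed it on 2 of 12, both of them LL34 scrambled arrays, and the remaining 7 probe sets passed it on none. A lower yardstick passed more probe sets: above the 95th percentile of 297 vomeronasal receptor probe sets lay Cbr2 on 12 arrays, Cyp2f2 probe set 17488117 on 11 and Muc5ac on 9, while Scgb1a1, Scgb3a2, Muc1, Bpifa1 and the other Cyp2f2 probe set passed it on 0. A probe set's rank depends on how well its probes hybridise as well as on RNA, so ranks are not compared as amounts between genes.

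**Figure D1:**
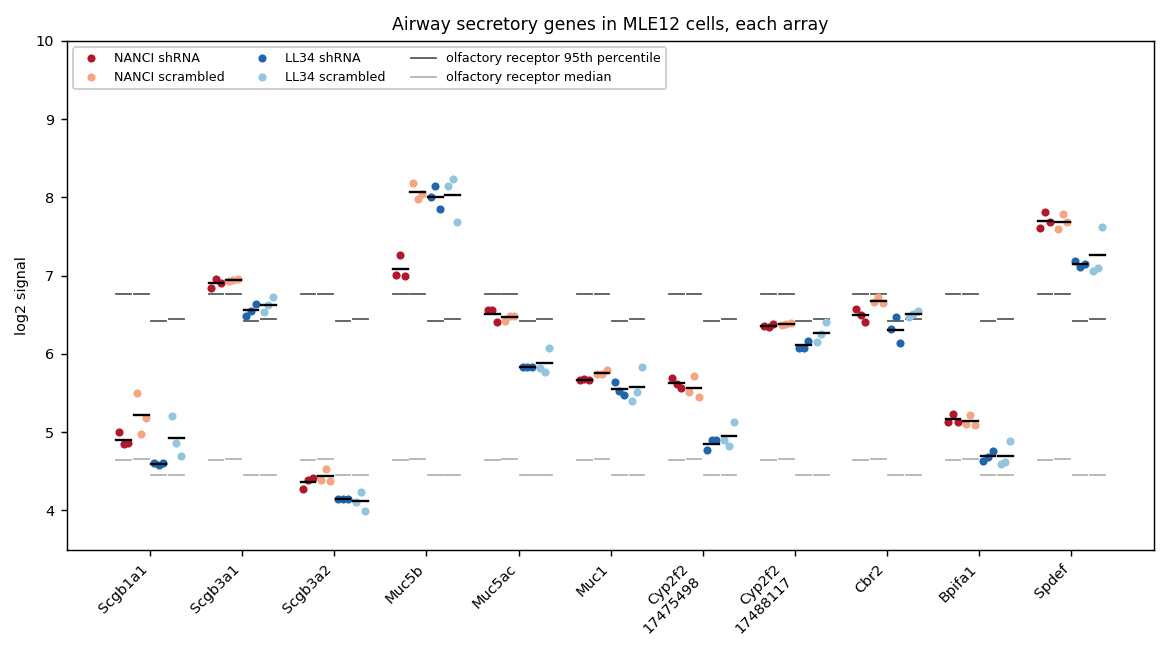
Log2 signal (y axis) of each of the 11 probe sets on each array, with points for single arrays, black bars for group means, and short grey lines for the median and 95th percentile of olfactory receptor probe sets, averaged over each group. Muc5b, Spdef and Scgb3a1 lie above the 95th percentile lines in all groups, and Muc5b after NANCI shRNA lies below its scrambled arrays.

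Of the 3 secretoglobins, Scgb1a1 encodes the main secreted protein of club cells, Scgb3a2 a relative made early in airway development, and Scgb3a1 a relative found in proximal airway secretory cells. Scgb1a1 signals were 4.995, 4.85 and 4.87 after NANCI shRNA, against 5.50, 4.97 and 5.18 after scrambled shRNA. All 6 lay in the lowest quartile of their arrays, and the groups overlapped between the highest NANCI shRNA array and the lowest scrambled one. After LL34 shRNA they were 4.60, 4.58 and 4.60, against 5.21, 4.86 and 4.69 after scrambled shRNA, again in the lowest quartile but with no overlap. The differences were -0.31 (SE 0.14) after NANCI shRNA and -0.33 (SE 0.14) after LL34 shRNA and missed the threshold (adjusted p 0.172 and 0.162). With array weights, whose estimate stopped before its convergence tolerance, the LL34 difference was -0.38 and passed (adjusted p 0.0377). Without the third LL34 scrambled array it was -0.44 (adjusted p 0.0666). Relative to the olfactory receptor 95th percentile of its array, Scgb1a1 lay at -1.99 to -1.13 log2 units.

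Scgb3a1 was the secretoglobin among the 3 that stood above the yardstick, though by a small margin. Its signals were 6.85, 6.95 and 6.91 after NANCI shRNA, against 6.93, 6.95 and 6.95 after scrambled shRNA. They were 6.49, 6.55 and 6.64 after LL34 shRNA, against 6.53, 6.62 and 6.73 after scrambled shRNA. The groups overlapped in both sets, the rank stayed between the 48.3rd and 52.7th percentile, and the gap above the yardstick was 0.057 to 0.27. Its differences of -0.04 and -0.07 had 95% intervals of -0.18 to 0.10 and -0.21 to 0.07 (adjusted p 0.799 and 0.576), and the second was -0.02 without the third LL34 scrambled array (adjusted p 0.926). Scgb3a2 lay below even the median of the olfactory receptor probe sets on all 12 arrays, at percentiles of 5.60 to 10.1, with differences of -0.08 and 0.03 (adjusted p 0.587 and 0.868). The LL34 difference of Scgb3a2 was -0.03 without that array (adjusted p 0.877).

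Muc5b was the member that changed. It encodes a gel-forming mucin that airway secretory cells release and that mucociliary clearance of mouse airways needs. Its signals were 7.01, 7.26 and 6.99 after NANCI shRNA, against 8.18, 7.98 and 8.04 after scrambled shRNA. All 3 NANCI shRNA arrays lay below all 3 scrambled arrays, with 0.22 to 0.42 log2 units left above the olfactory receptor 95th percentile. After LL34 shRNA the signals were 8.01, 8.15 and 7.85, against 8.15, 8.24 and 7.69 after scrambled shRNA, and the groups overlapped. Its rank was the 52.2nd to 57.1st percentile after NANCI shRNA and the 66.4th to 71.0th percentile on the other 9 arrays.

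Muc5b signal averaged 7.09 ± 0.15 after NANCI shRNA and 8.07 ± 0.10 after scrambled shRNA (SD, n = 3 each). That was a fall to 50.7% of scrambled with a 95% interval of 41.0% to 62.6% (log2 change -0.98, SE 0.14, limma adjusted p 0.000381). The percent is of signal, which after NANCI shRNA lay only 0.22 to 0.42 log2 units above the near-background level. After LL34 shRNA Muc5b signal averaged 8.00 ± 0.15, against 8.03 ± 0.30 after scrambled shRNA (SD, n = 3 each). The change of -0.02 had a 95% interval of -0.33 to 0.28 (adjusted p 0.950). The difference between the changes was itself past the threshold, with NANCI shRNA lower by 0.96 on the log2 scale (SE 0.20, adjusted p 0.00511). Without the third LL34 scrambled array the LL34 change was -0.19 (adjusted p 0.333). Muc5b kept its call under all 20 alternatives tried for NANCI shRNA, with changes of -1.07 to -0.93, and under all 18 for the difference, with values of -1.07 to -0.79.

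Muc5ac, the other secreted airway mucin and a marker of goblet cells, stayed under the yardstick on every array, in the second quartile. Its signals were 6.56, 6.56 and 6.41 after NANCI shRNA, against 6.42, 6.49 and 6.48 after scrambled shRNA. They were 5.83, 5.84 and 5.83 after LL34 shRNA, against 5.82, 5.77 and 6.08 after scrambled shRNA, with the highest value on the array that stands apart. Both pairs of groups overlapped, and the differences were 0.04 (95% interval -0.13 to 0.22) and -0.05 (95% interval -0.23 to 0.12), with adjusted p of 0.813 and 0.753. Without that array the second was 0.04 (adjusted p 0.795).

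Muc1, a mucin that spans the cell membrane of many epithelia, was also under the yardstick on all 12 arrays. After NANCI shRNA it measured 5.66, 5.68 and 5.67, against 5.75, 5.74 and 5.79 after scrambled shRNA, so that the groups did not overlap although the difference was only -0.09 (adjusted p 0.640). After LL34 shRNA its signals were 5.65, 5.53 and 5.47, against 5.40, 5.52 and 5.84 after scrambled shRNA, which overlapped (difference -0.03, adjusted p 0.891, and 0.095 without the third scrambled array, adjusted p 0.456).

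Among the enzymes, Cyp2f2 is the cytochrome P450 of mouse club cells that turns naphthalene into toxic products, and Cbr2 is a carbonyl reductase abundant in mouse lung. Cbr2 signals were 6.57, 6.50 and 6.41 after NANCI shRNA, against 6.66, 6.73 and 6.65 after scrambled shRNA. They were 6.32, 6.47 and 6.14 after LL34 shRNA, against 6.48, 6.51 and 6.55 after scrambled shRNA. In both sets every shRNA array lay below every scrambled array, and all values lay between the 40.3rd and 49.5th percentile. The differences were -0.19 (95% interval -0.37 to -0.01) and -0.21 (95% interval -0.38 to -0.03), and neither passed the threshold after adjustment (adjusted p 0.144 and 0.118). Without the third LL34 scrambled array the second was -0.19 (adjusted p 0.242), and without LL34 shRNA array 2 it was -0.29 and passed (adjusted p 0.0342).

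The 2 Cyp2f2 probe sets were in different ranges, 17488117 between the 38.7th and 46.8th percentile and 17475498 between the 16.6th and 27.3rd, and neither passed the yardstick on any array. Probe set 17488117 differed by -0.02 after NANCI shRNA and by -0.16 after LL34 shRNA (adjusted p 0.894 and 0.126), and without LL34 scrambled array 1 the LL34 difference was -0.23 and passed (adjusted p 0.0379). Without LL34 scrambled array 3 it was -0.097 (adjusted p 0.355). Probe set 17475498 differed by 0.06 and -0.09 (adjusted p 0.763 and 0.595), the second being -0.0032 without LL34 scrambled array 3 (adjusted p 0.993). Groups overlapped for both probe sets in both sets, and the probe sets disagreed on the sign of the NANCI difference, each with an interval that includes 0.

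Bpifa1, a secreted BPI fold protein of upper airway and nasal epithelium, lay in the lowest quartile of every array. Its signals were 5.13, 5.23 and 5.13 after NANCI shRNA, against 5.11, 5.22 and 5.09 after scrambled shRNA. After LL34 shRNA they were 4.63, 4.69 and 4.76, against 4.59, 4.62 and 4.89 after scrambled shRNA. The groups overlapped in both sets and the differences were 0.03 and -0.01 (adjusted p 0.887 and 0.977). The second was 0.087 without the third LL34 scrambled array (adjusted p 0.518).

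Spdef, the ETS transcription factor of goblet cells, stood 0.62 to 1.02 above the yardstick and in the third quartile of all arrays. Its signals were 7.61, 7.82 and 7.69 after NANCI shRNA, against 7.60, 7.78 and 7.68 after scrambled shRNA. They were 7.19, 7.11 and 7.15 after LL34 shRNA, against 7.05, 7.10 and 7.62 after scrambled shRNA. Groups overlapped in both sets, and the one high LL34 scrambled value is again that of the third array. The differences were 0.01 (95% interval -0.27 to 0.30, adjusted p 0.969) and -0.11 (95% interval -0.39 to 0.17, adjusted p 0.676), and without that array the second was 0.07 (adjusted p 0.694).

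Over all 11 probe sets, 1 was called after NANCI shRNA, 0 after LL34 shRNA and 1 for the difference between the changes, against 19.9%, 16.4% and 18.8% of all probe sets (limma, adjusted p under 0.05). At an unadjusted p under 0.05 the members' counts were 3, 3 and 1, against 28.6%, 27.2% and 28.5% of all. All 8 members whose mean lay under the yardstick were uncalled in the 3 comparisons, where the array called 3.54%, 3.36% and 3.44% of such probe sets. Of the 3 above it, 1, 0 and 1 were called, where the array called 34.8%, 28.2% and 32.8%. All shRNA arrays lay below all scrambled arrays for 3 members after NANCI shRNA and for 2 after LL34 shRNA, as for 15.5% and 12.3% of all probe sets.

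The members' median change was -0.04 after NANCI shRNA and -0.07 after LL34 shRNA, beside 0.01 and 0.0038 over all probe sets. The 10 uncalled probe sets differed by -0.31 to 0.06 after NANCI shRNA, with 95% intervals that together span -0.63 to 0.30. Of all 11 member probe sets, 7 were below 0 after NANCI shRNA. After LL34 shRNA the 11 differed by -0.33 to 0.03, and 10 of them were below 0. Without the third LL34 scrambled array 7 of the 11 were below 0, the differences ran from -0.44 to 0.10, and again 0 were called, with a lowest adjusted p of 0.0666. For the NANCI change minus the LL34 change 3 of the 11 were below 0. The share of all probe sets below 0 was not counted.

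**Figure D2:**
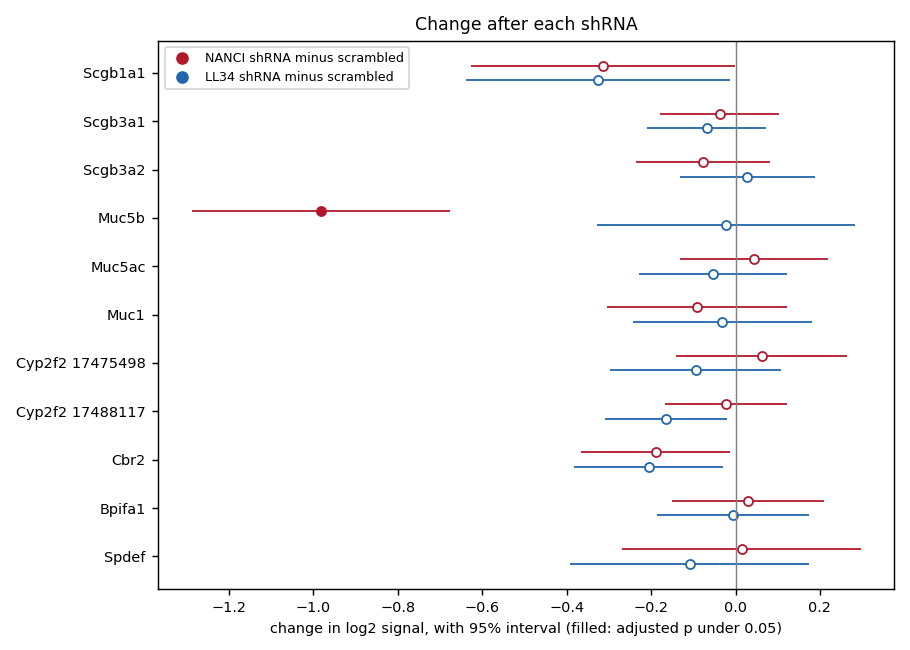
Change in log2 signal, shRNA minus scrambled (x axis), for each probe set, with its 95% interval; red marks the NANCI set, blue the LL34 set, and a filled point an adjusted p under 0.05. Muc5b after NANCI shRNA, at -0.98, is the filled point, and the others lie between -0.33 and 0.06.

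Muc5b lies in a row of gel-forming mucin genes, and the genes around it were read for changes of their own. In the mouse gene table of assembly GRCm38.p6 the order is Tspan4, Chid1, Ap2a2, Muc6, Muc2, Muc5ac, Muc5b, Tollip, Brsk2, Mob2, Dusp8 and Krtap5-2, a stretch chosen after the Muc5b value was known. After NANCI shRNA the other mucins of the row differed by 0.11 (Muc6), by 0.10 and -0.06 (the 2 probe sets of Muc2) and by 0.04 (Muc5ac), with adjusted p of 0.501 to 0.813. Over all arrays Muc6 averaged 6.40, Muc5ac 6.17 and Muc2 probe set 17485019 6.593, all under the mean yardstick of 6.598, where few probe sets were called. Muc2 probe set 17484991 averaged 7.03. Muc2 is the main mucin of intestinal goblet cells and Muc6 one of stomach glands. Tollip, which binds Toll-like receptor signalling proteins and follows Muc5b in the row, differed by 0.02 after NANCI shRNA (adjusted p 0.893) and rose by 0.39 after LL34 shRNA (adjusted p 0.000484).

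Other genes of the row did change after NANCI shRNA. Chid1, which encodes a chitinase-like protein, fell by 0.34 (adjusted p 0.00386; 0.073 higher and uncalled against all 6 scrambled arrays, adjusted p 0.833), and Mob2, a regulator of NDR kinases, rose by 0.54 (adjusted p 0.000127). After LL34 shRNA Chid1 rose by 0.43, Mob2 by 0.38 and Dusp8, a phosphatase of MAP kinases, by 0.52 (adjusted p 0.00127, 0.00235 and 0.000443). Against all 6 scrambled arrays the LL34 changes of Chid1 and Dusp8 were 0.020 and 0.22 and were not called (adjusted p 0.953 and 0.368). Ap2a2, an adaptor subunit of clathrin coats, fell by 0.21 after LL34 shRNA, and 1 of the 2 Muc2 probe sets, 17485019, by 0.28 (adjusted p 0.0177 and 0.0229). The mean of that Muc2 probe set over all arrays lay just under the mean yardstick. Its LL34 scrambled signals of 6.53, 6.51 and 6.65 were above the yardstick of their arrays (6.34, 6.39 and 6.59). Its LL34 shRNA signals of 6.19, 6.29 and 6.37 were below that of theirs (6.36, 6.49 and 6.39). The Ap2a2 call was lost without LL34 shRNA array 2 or 3 or LL34 scrambled array 1 or 2 (adjusted p 0.0590 to 0.0614), and the Muc2 call without LL34 shRNA array 1 or 2 or LL34 scrambled array 3 (adjusted p 0.0628 to 0.0989). Brsk2 had no probe set under 1 symbol.

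**Figure D3:**
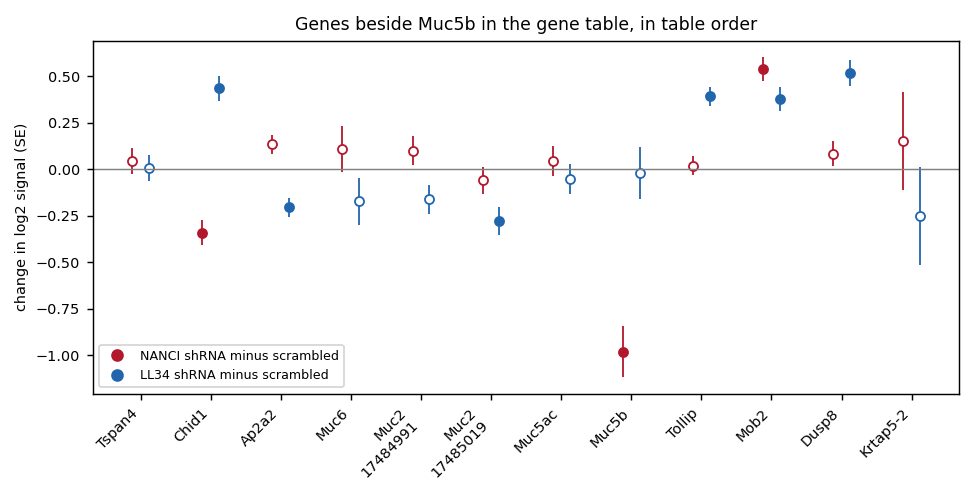
Change in log2 signal with its SE (y axis) for the measured genes beside Muc5b, in the order of the gene table; red marks NANCI shRNA minus scrambled, blue LL34 shRNA minus scrambled, and filled points an adjusted p under 0.05. Muc5b at -0.98 after NANCI shRNA lies below its measured neighbours, which run from -0.34 to 0.54 in that comparison.

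The members' wider families were read the same way. Lists of airway genes were read by their counts, with the brightest probe set standing for a gene, beside 13.2% higher and 13.6% lower among the 22180 named genes after NANCI shRNA and 9.77% higher and 10.3% lower after LL34 shRNA. Of 16 secretoglobins measured, 0 were called in either knockdown (1 in each at an unadjusted p under 0.05), and 2 reached the yardstick, Scgb3a1 and Scgb1b3. Scgb1b3, an androgen-binding protein gene of mouse, averaged 9.04 over all arrays, and its near-identical paralogs make that signal's gene uncertain. Of 16 mucins, 1 rose and 2 fell after NANCI shRNA, and 1 rose and 1 fell after LL34 shRNA. Besides Muc5b these were Podxl, the sialomucin podocalyxin, which fell to 51.9% and 66.1% of scrambled (adjusted p 1.40e-05 and 0.000589), and Cd164, a sialomucin of endosomes, which rose by 0.20 and 0.23 (adjusted p 0.0157 and 0.00809; 0.0536 after NANCI shRNA without NANCI shRNA array 3). After LL34 shRNA neither was called against all 6 scrambled arrays, with changes of -0.34 for Podxl and 0.05 for Cd164 (adjusted p 0.161 and 0.772).

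Of 16 BPI fold genes, the family of Bpifa1, Lbp was called in both knockdowns and 15 were not. Lbp, which encodes the lipopolysaccharide-binding protein, fell to 62.0% of scrambled after NANCI shRNA and to 55.5% after LL34 shRNA (adjusted p 0.000798 and 0.000348). Among 28 airway host defence genes, 5 fell and 0 rose after NANCI shRNA, and 3 fell and 0 rose after LL34 shRNA. Serpinb1a, an inhibitor of neutrophil proteases, and Cxcl15, a chemokine of lung epithelium, fell to 27.8% and 35.4% of scrambled after NANCI shRNA (adjusted p 1.37e-05 and 0.000906). After LL34 shRNA they stood at 78.4% and 157% and were not called (adjusted p 0.192 and 0.0998). Cxcl15 signals after NANCI shRNA were 6.26, 6.40 and 6.32, under the yardstick of those arrays (6.69, 6.84 and 6.77). Its 35.4% therefore describes signal near background. Wfdc1, a WAP domain protein, and Duox1, an oxidase that makes hydrogen peroxide, fell to 39.8% and 71.8% of scrambled after LL34 shRNA (adjusted p 0.000188 and 0.000819). After NANCI shRNA Wfdc1 fell to 53.8% (adjusted p 0.00147) and Duox1 stood at 86.6% (adjusted p 0.0619, and 0.0334 against all 6 scrambled arrays).

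The enzymes that club cells use to oxidise, reduce and conjugate compounds moved in both directions after NANCI shRNA, with 5 higher and 4 lower of 33, and mostly downward after LL34 shRNA, with 1 higher and 11 lower. Cbr3, a relative of Cbr2, rose to 260% of scrambled after NANCI shRNA and fell to 25.9% after LL34 shRNA (adjusted p 2.85e-05 and 6.15e-06). Cbr3 signals after LL34 shRNA were 6.73, 6.21 and 6.32. Of these, 6.21 and 6.32 lay under the yardstick of their arrays (6.49 and 6.39). Aldh1a1, an enzyme of retinoic acid synthesis, stood at 157% and 12.1% of scrambled (adjusted p 0.00182 and 3.32e-07), but at -0.0036 on the log2 scale after NANCI shRNA when all 6 scrambled arrays served as 1 control (adjusted p 0.994). Ephx1, the microsomal epoxide hydrolase, was at 143% and 80.4% (adjusted p 2.95e-05 and 0.00144). Aldh3a1, an aldehyde dehydrogenase, fell to 38.2% after LL34 shRNA (adjusted p 3.84e-06) and differed by -0.18 after NANCI shRNA (adjusted p 0.201). The directions of the first 3 were thus opposite in the 2 knockdowns, while the members Cyp2f2 and Cbr2 were called in neither.

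Goblet cell and mucus granule genes, Spdef among them and mucins apart, numbered 31, of which 1 rose and 6 fell after NANCI shRNA, and 0 rose and 5 fell after LL34 shRNA. Pdia5, a protein disulfide isomerase, fell to 20.4% of scrambled after NANCI shRNA (adjusted p 2.08e-07) and differed by 0.16 after LL34 shRNA (adjusted p 0.357). Klf4, a transcription factor of differentiating epithelia, fell to 56.8% and 74.9% (adjusted p 2.36e-06 and 0.000411). Slc12a2, the chloride cotransporter that feeds fluid secretion, fell to 73.8% and 51.3% (adjusted p 0.000701 and 7.07e-06).

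Enzymes of mucin type O-glycosylation, which attach and extend the sugar chains of mucins, were split, with 5 of 32 higher and 5 lower after NANCI shRNA and 2 higher and 6 lower after LL34 shRNA. Galnt2, which starts such chains, fell to 58.1% and 72.5% of scrambled (adjusted p 1.43e-05 and 0.000926). B3gnt3, which extends them, fell to 61.3% after NANCI shRNA and differed by 0.14 after LL34 shRNA (adjusted p 3.56e-05 and 0.249). Galnt3 rose to 147% and Galnt12 fell to 54.3% of scrambled after LL34 shRNA (adjusted p 5.23e-05 and 6.46e-05), both of them also enzymes that start chains. Galnt3 was 0.25 higher on the log2 scale and uncalled against all 6 scrambled arrays (adjusted p 0.306). Its LL34 scrambled signals of 6.25, 6.16 and 6.10 lay under the yardstick of those arrays (6.34, 6.39 and 6.59). After NANCI shRNA Galnt3 and Galnt12 differed by -0.14 and 0.07 (adjusted p 0.0985 and 0.733).

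Of 42 airway epithelial transcription factors, 16 fell and 5 rose after NANCI shRNA, and 13 fell and 5 rose after LL34 shRNA. Beside Nkx2-1 and Klf4, Foxa1, a forkhead factor of lung epithelium, fell to 69.7% after NANCI shRNA and to 38.8% after LL34 shRNA (adjusted p 0.000256 and 1.20e-06). Grhl1, a grainyhead factor, fell to 78.9% after NANCI shRNA and rose to 164% after LL34 shRNA (adjusted p 0.00861 and 0.000125). Against all 6 scrambled arrays neither Grhl1 call was kept, with changes of -0.027 and 0.40 (adjusted p 0.924 and 0.159). Of these 42 genes 36 reached the yardstick, against 2 of 16 secretoglobins, 7 of 16 mucins, 3 of 16 BPI fold genes and 12 of 31 goblet cell genes. So did 17 of 33 club cell enzymes, 18 of 32 O-glycosylation enzymes and 11 of 28 host defence genes. Called genes are rarer among dim probe sets, as the shares above show.

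Without the third LL34 scrambled array the LL34 counts of the mucins, BPI fold genes, host defence genes, club cell enzymes and goblet cell genes were as above. The O-glycosylation enzymes had 3 higher in place of 2, the transcription factors 4 higher in place of 5, and 1 secretoglobin, Scgb2b7, was called, at 0.36 in place of 0.19 (adjusted p 0.0475 and 0.447). Scgb2b7 is an androgen-binding protein gene of mouse with close paralogs, and its mean signal of 5.59 lay under the yardstick. This repeat was chosen after the data were seen.

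**Figure D4:**
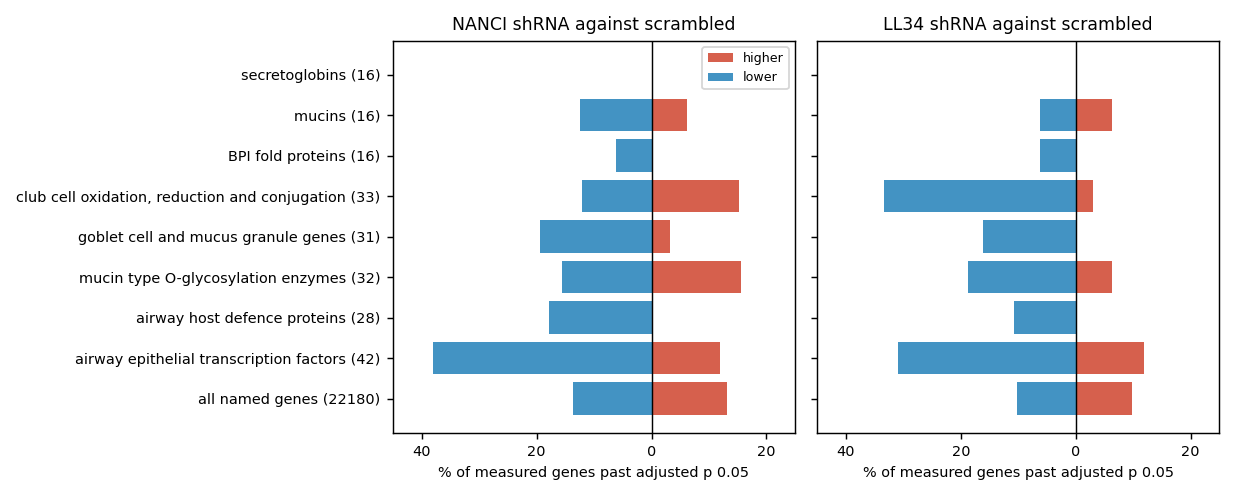
Percent of measured genes past adjusted p 0.05 (x axis), higher to the right and lower to the left of 0, for 8 lists of airway genes and for all 22180 named genes, after NANCI shRNA (left panel) and LL34 shRNA (right panel); numbers in brackets are the genes measured. The secretoglobin rows are empty, and 11 of 33 club cell enzymes are lower after LL34 shRNA.

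Markers of other cell types the culture could hold were read beside these values. Of 15 ciliated cell markers, 2 rose and 0 fell after NANCI shRNA and 0 were called after LL34 shRNA (2 at an unadjusted p under 0.05). Of 10 basal cell markers 1 rose after NANCI shRNA and 1 fell after LL34 shRNA, and 5 markers of each list reached the yardstick. Of 12 leukocyte and endothelial markers 2 reached it, with 1 higher and 1 lower after NANCI shRNA and 1 lower after LL34 shRNA. Among the 7 marker lists the alveolar type 1 markers had the lowest medians, -0.68 after NANCI shRNA and -0.22 after LL34 shRNA. All 12 of them reached the yardstick, and 8 fell after NANCI shRNA and 6 after LL34 shRNA. The log2 of their summed signal ran from 14.18 to 14.26 after NANCI shRNA, against 14.74 to 14.76 after scrambled shRNA, and from 14.28 to 14.32 after LL34 shRNA, against 14.55 to 14.64 after scrambled shRNA. That of the 10 basal cell markers ran from 12.51 to 12.55 after NANCI shRNA, against 11.80 to 11.88 after scrambled shRNA, and from 11.92 to 11.94 after LL34 shRNA, against 12.10 to 12.19 after scrambled shRNA. A summed signal is carried mostly by the brightest genes of its list. The median log2 signal of the basal cell markers was 6.86 after NANCI shRNA, against 6.91 after scrambled shRNA. It was 6.46 after LL34 shRNA, against 6.37 after scrambled shRNA. Without the third LL34 scrambled array 7 alveolar type 1 markers and 2 leukocyte and endothelial markers were lower after LL34 shRNA.

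Of the 15 alveolar type 2 markers 1 rose and 3 fell after NANCI shRNA, and 2 rose and 2 fell after LL34 shRNA. Their summed log2 signal ran from 12.07 to 12.22 after NANCI shRNA, against 12.52 to 12.74 after scrambled shRNA, and from 12.43 to 12.56 after LL34 shRNA, against 12.44 to 12.75 after scrambled shRNA. Of 15 general epithelial markers 11 reached the yardstick, with 1 higher and 7 lower after NANCI shRNA and 2 higher and 2 lower after LL34 shRNA (1 higher without the third scrambled array). Their sums were 13.70 to 13.74 after NANCI shRNA, against 14.002 to 14.06 after scrambled shRNA, and 13.61 to 13.66 after LL34 shRNA, against 13.79 to 13.94 after scrambled shRNA. Of 12 mesenchymal markers 9 reached the yardstick, and 2 fell after NANCI shRNA and 1 after LL34 shRNA, with none higher. Their sums were 13.56 to 13.59 after NANCI shRNA, against 14.02 to 14.07 after scrambled shRNA, and 13.99 to 14.06 after LL34 shRNA, against 14.14 to 14.16 after scrambled shRNA. Their median log2 signal was 6.97 after NANCI shRNA, against 7.04 after scrambled shRNA, and 6.79 after LL34 shRNA, against 6.82 after scrambled shRNA. The part of these markers in the Muc5b result was not tested.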

How the data were processed

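RNA of 12 MLE12 cultures was hybridised to Affymetrix arrays from 100 ng of total RNA, primed with poly(T), per the labels' protocols. The authors deposited log2 signals per probe set, made with oligo, RMA and limma, per the submitters' processing notes. Tool versions and a genome build were not given in the sources used here. Of 41345 probe sets, 23521 carried 1 gene symbol, 1814 several and 16010 none, and only the first were named.

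limma 3.58.1 in R 4.3.3 was fitted to these values, 12 arrays in 1 model with a mean per group (8 residual and 2.84 prior degrees of freedom), and p-values were adjusted by Benjamini-Hochberg over all 41345 probe sets, with a threshold of 0.05. The procedure was tested on simulated data, where it called 68% of changes of 0.5 log2 units and 86% of changes of 1. Far fewer probe sets were changed there, 100 of each size, than were called in these data. Changes are shRNA minus scrambled. The brightest probe set stood for a gene in the lists. Named genes were the members, Nkx2-1, markers of the line and, under a rule of up to 4 called genes per list and knockdown, the 2 with the smallest p. Members, lists and tests were chosen with earlier results of these data known, and motifs after sequences had been read. Quantile normalization, median centring, separate fits, a replicate block, array weights, an intensity trend, a filter on dim probe sets, pooled scrambled arrays and leaving out each array were tried. The estimate of the array weights stopped before its convergence tolerance and was used as computed. Replicate numbers did not pair arrays, with correlations of same-numbered deviations of -0.12 to 0.05. The number of arrays limits the precision.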

Additional observations from a re-analysis of the deposited data

Results flagged for a closer look

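Each gene below changed differently after the 2 shRNAs, by limma's test of the NANCI change minus the LL34 change, in log2 units. Of all probe sets, 18.8% passed that test. Among the members Muc5b alone did, with a difference of -0.96 (adjusted p 0.00511).

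For the club cell enzymes the difference was 3.33 for Cbr3, 0.83 for Ephx1, 3.69 for Aldh1a1 and 1.21 for Aldh3a1 (adjusted p 3.81e-07 to 5.22e-05). Goblet cell genes gave -2.46 for Pdia5, -0.40 for Klf4 and 0.52 for Slc12a2 (adjusted p 1.35e-06 to 0.00362). O-glycosylation enzymes gave -0.32 for Galnt2, -0.84 for B3gnt3, -0.69 for Galnt3 and 0.95 for Galnt12 (adjusted p 7.75e-05 to 0.0424). The Galnt2 difference was not called with arrays centred on their medians (-0.29, adjusted p 0.0912), with the replicate block (adjusted p 0.118) or when 1 of 9 arrays was left out (adjusted p 0.0584 to 0.103). Host defence genes gave -1.49 for Serpinb1a and -2.14 for Cxcl15 (adjusted p 0.000787 and 0.000985).

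Transcription factors gave -0.73 for Nkx2-1, 0.84 for Foxa1 and -1.06 for Grhl1 (adjusted p 6.08e-05 to 0.000529), and the targeted RNA Sfta3-ps gave -2.24 (adjusted p 7.43e-06). Of the genes beside Muc5b, Ap2a2 gave 0.34, Chid1 -0.78, Tollip -0.37 and Dusp8 -0.43 (adjusted p 0.000200 to 0.00862).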

How the results depend on the processing

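Members gave 614 values under the alternatives, of which 611 kept their side of the threshold and direction of call, and 35 differences that missed the threshold changed sign. The 3 that passed were Scgb1a1 after LL34 shRNA with array weights (-0.38, adjusted p 0.0377), Cbr2 after LL34 shRNA without LL34 shRNA array 2 (-0.29, adjusted p 0.0342) and Cyp2f2 17488117 after LL34 shRNA without LL34 scrambled array 1 (-0.23, adjusted p 0.0379). Over each result's alternatives the adjusted p ran from 0.0377 to 0.404, from 0.0342 to 0.401 and, over both Cyp2f2 probe sets, from 0.0379 to 0.993. With all 6 scrambled arrays as 1 control, 4309 probe sets were called after LL34 shRNA in place of 6766, and Aldh1a1 after NANCI shRNA turned to -0.0036 (adjusted p 0.994) and Chid1 to 0.073 (adjusted p 0.833). That setting mixes values normalized separately. Leaving out each array in turn gave 6699 to 9551 calls after NANCI shRNA, 4704 to 6670 after LL34 shRNA and 6519 to 8111 for the difference. With the replicate block the calls were 6906, 5257 and 6320, and arrays share only a number. The LL34 split of 4011 higher and 2755 lower became 3307 and 3463 after quantile normalization and 3062 and 3035 after median centring. Against vomeronasal receptor genes, 6 member probe sets in place of 3 passed the near-background level in the NANCI shRNA, NANCI scrambled and LL34 shRNA groups, and against the olfactory receptor 90th percentile 6, 6 and 5 did. Of 60 list counts 58 stayed within 1.5 times when probe sets were averaged. Of 1847 values of other named genes 1792 kept their call, 39 lost it, 14 gained it and 2 reversed. Nkx2-1 after LL34 shRNA had adjusted p of 0.0664 with the replicate block and 0.1 in the fit of its 6 arrays, and Cd164 after NANCI shRNA had 0.0712 and 0.0632. The Galnt2 difference missed the threshold without NANCI shRNA array 2 or 3, NANCI scrambled array 1 or 3, any LL34 shRNA array, or LL34 scrambled array 1 or 3 (adjusted p 0.0584 to 0.103). The causes were not tested. Signal over background limits what the 8 dim probe sets can show.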
